A study of Mus musculus with 16 samples.

Results

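The HIRA complex and H3.3 genes were taken by name from the gene table: Hira, Ubn1, Ubn2, Cabin1 and Asf1a, which encode the chaperone, and H3f3a and H3f3b, which encode its cargo. All 7 had a row among the 55421 genes, and all 7 passed the filter on low counts that left 23018 genes for testing. HIRA is the subunit that was deleted here. UBN1 and UBN2 are alternative subunits that recognise H3.3, CABIN1 is a further subunit, and ASF1A hands the H3-H4 dimer to the complex. HIRA places H3.3 outside of DNA replication, mostly at active genes and regulatory elements, whereas the CAF-1 complex places the canonical H3.1 and H3.2 during replication. In a liver at rest, where hepatocytes divide rarely, H3.3 is therefore the main source of new H3.

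PolyA RNA from liver of male C57BL/6 mice had been sequenced in 16 libraries, 4 in each of 4 groups. HIRA KO livers came from HIRA fl/fl mice given AAV8 Tbg-Cre or from wildtype mice given AAV8-Tbg-saCas9/U6-sgRNA-HIRA. Control livers came from wildtype mice given AAV8 Tbg-Cre or AAV8-Tbg-saCAS9/U6-sgRNA-Rosa26, and each group held 2 libraries of each approach. All mice therefore carried a virus with a nuclease or recombinase. Injection was at 6 months. Lobes resected 4 weeks later formed the group before regeneration, and the liver that remained, collected 5 days after surgery, formed the group after regeneration. The lobe, the way the tissue was collected and the time differ at once between these groups and cannot be told apart. The Tbg promoter is active in hepatocytes, so the other cells of the liver kept Hira. In whole tissue, fewer cells of a type and less RNA per cell cannot be told apart.

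Total counts ran from 15103059 to 21738619 per library. Hepatocyte markers were abundant in every library (summed level of the 10 markers, 109226 to 172861 CPM, reads scaled to the size of the library with TMM factors), and none of the markers of any list was at 0 in all libraries of a group. The columns carry a number from 1 to 4 that is in no label and do not give the approach or the mouse. On the second principal component (26.5% of the variance), HIRA KO libraries 1 and 2 lay between -47.4 and -36.2 both before and after regeneration, against -1.14 to 31.2 for the other 12 libraries. In HIRA KO before regeneration the 9 stellate cell markers summed to 692 and 504 CPM in libraries 1 and 2 and to 263 and 278 CPM in libraries 3 and 4, with 235 to 262 CPM in control. The same 2 libraries were also high in the 8 cholangiocyte markers (174 and 127 CPM against 82.2 and 99.0 in libraries 3 and 4, and 77.5 to 106 in control), the 7 T and NK cell markers (6.77 and 5.07 against 2.18 and 1.82, and 1.99 to 3.50 in control) and the 12 proliferation markers (31.8 and 23.6 against 9.59 and 9.58, and 7.10 to 16.6 in control). The sum of the 10 hepatocyte markers was high there as well (172861 and 154271 CPM against 126049 and 141445, and 110566 to 125190 in control). The single hepatocyte markers were split. In HIRA KO against control before regeneration, 2 of the 10 were called higher and 2 lower in libraries 1 and 2, beside 8.55% of all genes called. After regeneration the proliferation markers of HIRA KO summed to 91.0 and 58.7 CPM in libraries 1 and 2 and to 460 and 127 CPM in libraries 3 and 4. The control libraries then had 57.6, 218, 472 and 399 CPM, so a low sum was also seen in control library 1. The called fold changes of the 7 genes and the H3.3 total are therefore also given without HIRA KO libraries 1 and 2.

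H3f3a and H3f3b encode the same protein from very different DNA, which bears on how reads can be assigned between them. Over the 411 coding bases including the stop codon, 95 bases differed (76.9% identity), 81 of them at the last position of a codon. The differences touched 83 of 136 codons, and 0 of them changed the residue. The longest identical run was 23 bases. The first 120 coding bases of each gene (GENCODE M21) are shown 5′ to 3′ because they show this spacing, with the 24 positions that differ between the genes in capitals:
H3f3a: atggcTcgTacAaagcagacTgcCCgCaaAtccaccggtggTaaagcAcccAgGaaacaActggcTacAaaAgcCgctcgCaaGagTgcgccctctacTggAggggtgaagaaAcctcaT
H3f3b: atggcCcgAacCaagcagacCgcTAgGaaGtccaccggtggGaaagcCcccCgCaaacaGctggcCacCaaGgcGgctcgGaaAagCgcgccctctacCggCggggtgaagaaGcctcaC

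The promoters of the H3.3 genes also differed. The 250 bases before the RefSeq start (build GRCm38.p6, sequence as transcribed) are shown for both, since the levels of these genes are compared below. The motifs CCAAT (either strand, so ATTGG as well) and TATAAA (either strand) are in capitals. The windows lie on the minus strand at chr1:180813606-180813855 for H3f3a and chr11:116024505-116024754 for H3f3b.
H3f3a: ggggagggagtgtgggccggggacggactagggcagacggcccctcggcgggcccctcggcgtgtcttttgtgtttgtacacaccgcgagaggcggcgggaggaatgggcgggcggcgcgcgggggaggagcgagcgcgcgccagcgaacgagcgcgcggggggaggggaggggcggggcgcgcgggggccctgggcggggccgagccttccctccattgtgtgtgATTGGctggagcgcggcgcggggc
H3f3b: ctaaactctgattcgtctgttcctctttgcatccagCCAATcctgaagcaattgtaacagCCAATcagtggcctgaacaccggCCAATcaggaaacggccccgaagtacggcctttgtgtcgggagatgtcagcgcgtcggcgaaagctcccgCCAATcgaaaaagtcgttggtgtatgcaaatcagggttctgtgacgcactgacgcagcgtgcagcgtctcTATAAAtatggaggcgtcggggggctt

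The H3f3b window held 4 CCAAT and 1 TATAAA motif and no GGGCGG, at 54.0% GC. The H3f3a window held 1 CCAAT, no TATAAA and 4 GGGCGG motifs, at 77.2% GC. Of 32851 windows of the same length, 33.8% held CCAAT, 12.4% held TATAAA and 32.7% held GGGCGG on either strand, with a median GC of 52.4%. Among the promoters of the chaperone genes, CCAAT was found in those of Ubn1 (2), Cabin1 (2) and Asf1a (1), and not in those of Hira and Ubn2. TATAAA was found in none of these 5. A match in these letters is a description of the window and was not tied to any factor.

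Per length of exon, the H3.3 genes were far above their chaperone in liver. Averaged over the 16 libraries, the level in CPM per kb of merged exon was 68.8 ± 13.8 (SD) for H3f3b, 22.3 ± 6.67 for H3f3a, 3.87 ± 0.658 for Ubn1, 1.69 ± 0.282 for Cabin1, 1.61 ± 0.391 for Asf1a, 0.931 ± 0.126 for Ubn2 and 0.744 ± 0.200 for Hira. Most steps of this order held in 16 of 16 libraries. Cabin1 was above Asf1a in only 10 of 16 libraries, and Ubn2 was above Hira in 10 of 16, so the order of these 2 neighbouring pairs was not fixed. Hira and Ubn2 were close in control, at 0.929 and 0.875 before and 0.912 and 0.932 after regeneration. In HIRA KO, Hira was lower than Ubn2, at 0.570 and 1.03 before and 0.565 and 0.891 after regeneration. The Hira average over 16 libraries includes those of HIRA KO. The deposited FPKM (fragments relative to the length of the transcript and the depth of the library) gave another order, with H3f3a at 136 ± 43.7 above H3f3b at 111 ± 26.8 in 14 of 16 libraries, and with Hira at 3.24 ± 0.931 close to Cabin1 at 2.95 ± 0.663. The FPKM exceeded the count level per kb by a factor of 6.13 for H3f3a, 4.35 for Hira and 3.68 for Asf1a, against 1.28 to 1.75 for the other 4 genes. Levels between genes thus depended on the table. The fold changes between groups below stay within 1 gene and 1 table. The H3.3 total and the shares given below combine genes, so they depend on the table.

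**Figure D1:**
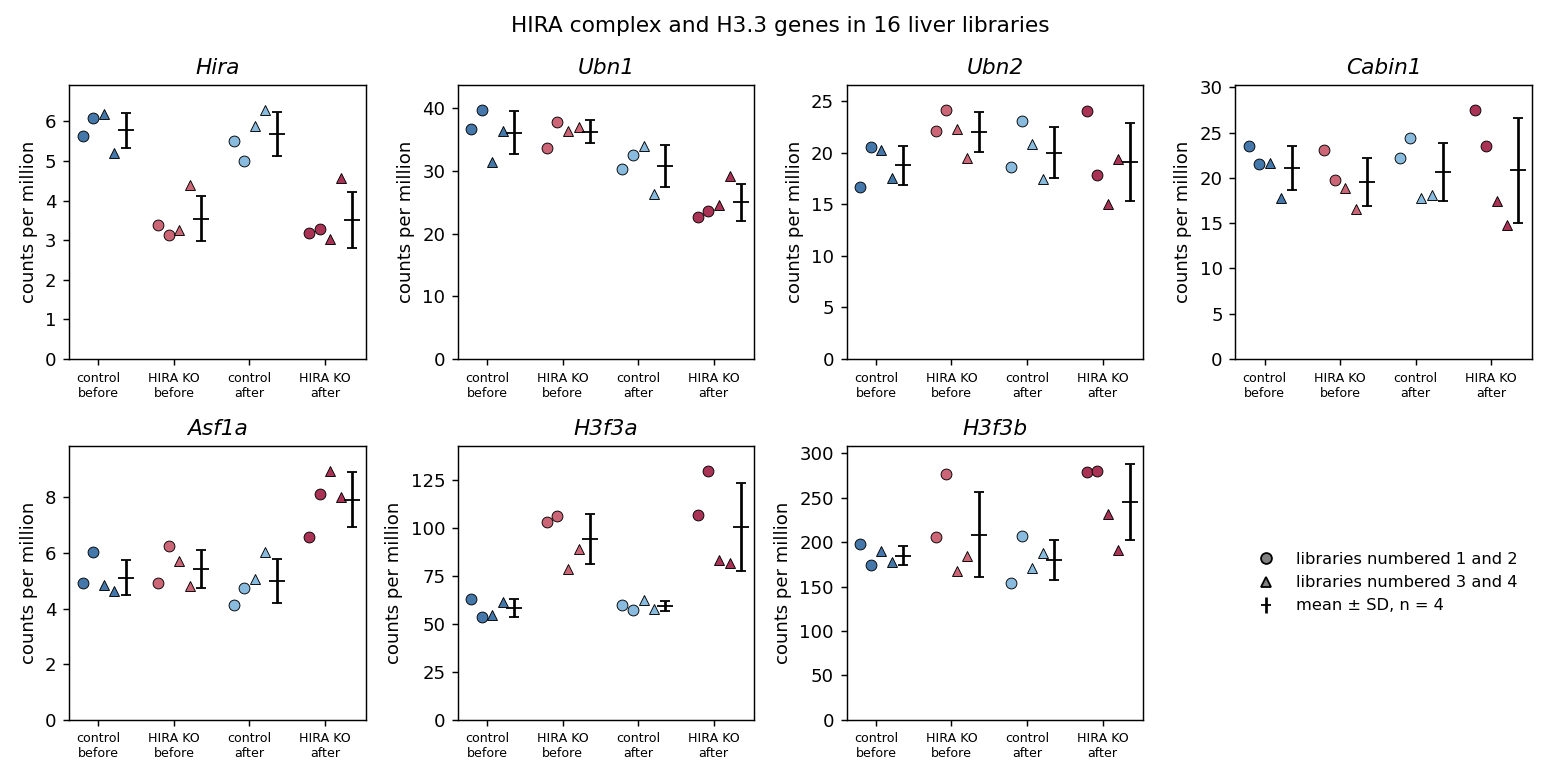
Level of each gene in CPM (vertical axis, from 0) in the 4 groups (horizontal axis). Each point is a library, circles for those numbered 1 and 2 and triangles for those numbered 3 and 4, and the bar beside them is the mean ± SD (n = 4). Hira lay lower and H3f3a higher in every HIRA KO library than in any control library at the same time, and the Asf1a values of HIRA KO after regeneration lay above those of the other 12 libraries.

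Hira, the targeted gene (chr16:18877037-18970309, plus strand, 30 merged exons), was read first as the check of the labels. Before regeneration it had 113, 113, 108 and 88 reads in the control libraries and 64, 47, 48 and 70 in the HIRA KO libraries. On the CPM scale this was 5.77 ± 0.448 (SD, n = 4) and 3.54 ± 0.571, and no HIRA KO library reached the lowest control library. HIRA KO had 61.4% of the control mean, with a log2 fold change of -0.70 (SE 0.17).

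After regeneration the difference was of the same size. Hira had 88, 87, 108 and 131 reads in control and 70, 74, 64 and 82 in HIRA KO, or 5.67 ± 0.554 and 3.51 ± 0.707 CPM. The 4 HIRA KO libraries again lay below the 4 control libraries in CPM, at 62.0% of the control mean (log2 fold change -0.69, SE 0.17). Every HIRA KO library kept Hira reads. The count is 1 value per gene from the whole tissue, so it does not show the edited exon or the hepatocytes alone.

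In edgeR's quasi-likelihood test over all genes, Hira did not pass after Benjamini-Hochberg adjustment before (adjusted p = 0.129) or after regeneration (adjusted p = 0.0666). DESeq2's Wald test called it at both times (adjusted p = 0.0127 and 0.00473). The exact two-sided permutation test of its CPM gave p = 0.0286 at each time, the smallest value that 4 against 4 libraries allow. Counting error alone would give a spread of 9.74% to 13.2% in these groups, and the observed spread was 7.77% to 20.1%. It was largest in HIRA KO after regeneration, where counting error would give 11.7%. In the libraries numbered 1 and 2 the fold change before regeneration was -0.84 (SE 0.23), and in those numbered 3 and 4 it was -0.57 (SE 0.23). After regeneration the values were -0.70 and -0.69. Without HIRA KO libraries 1 and 2 the fold change was -0.59 (adjusted p = 0.586) before and -0.57 (adjusted p = 0.323) after regeneration. Hira RNA did not change with regeneration in control (log2 fold change -0.025, 95% interval -0.39 to 0.34) or in HIRA KO (-0.015, -0.39 to 0.36) by a measurable amount. A gene model on the same strand, Gm28539, shares 44.7% of the Hira exon bases and had 0 counts in every library. How reads of the shared exons were counted is not given in the sources used here.

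Every HIRA KO library held more H3f3a RNA than every control library at the same time. Before regeneration it had 62.9, 53.5, 54.8 and 61.2 CPM in control and 103, 106, 78.4 and 89.0 CPM in HIRA KO. After regeneration it had 59.8, 57.1, 62.6 and 57.6 CPM in control and 107, 130, 83.3 and 81.8 CPM in HIRA KO. The libraries with the most H3f3a were HIRA KO libraries 1 and 2, and the control libraries stayed between 53.5 and 62.9 CPM at both times.

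HIRA KO had 162% of the control H3f3a mean before regeneration (log2 fold change 0.70, SE 0.14; edgeR adjusted p = 0.0813) and 170% after it (0.76, SE 0.14; adjusted p = 0.0383). The difference between the genotypes thus passed the edgeR test in the livers collected after regeneration and not in those resected before it. Between the times, H3f3a had a log2 fold change of 0.028 in control (adjusted p = 0.938) and 0.094 in HIRA KO (adjusted p = 0.721). DESeq2 called the difference between HIRA KO and control both before and after regeneration (adjusted p = 0.000872 and 8.04e-05). The call after regeneration was made in 2 of the 8 fits that left out a library, those without HIRA KO library 3 or 4, with log2 fold changes from 0.63 to 0.87 over the 8 and adjusted p up to 0.115. It was lost without any 1 of the control libraries and without HIRA KO library 1 or 2. The HIRA KO effect on H3f3a did not differ measurably between the times (difference 0.065, 95% interval -0.36 to 0.49).

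The size of the H3f3a difference varied with the library number. In libraries 1 and 2 the log2 fold change was 0.85 (SE 0.13; adjusted p = 0.000584) before and 1.02 (SE 0.13; adjusted p = 4.79e-05) after regeneration. In libraries 3 and 4 it was 0.53 (SE 0.13; adjusted p = 0.296) and 0.46 (SE 0.13; adjusted p = 0.244). The direction was the same in both, and the difference between them did not pass edgeR's test after adjustment over all genes (adjusted p = 0.616 before and 0.128 after). Without HIRA KO libraries 1 and 2, which stood apart on the second principal component, the values were 0.53 (SE 0.10; adjusted p = 0.149) and 0.50 (SE 0.10; adjusted p = 0.112). These are also the libraries with the highest summed hepatocyte, stellate, cholangiocyte, T and NK cell and proliferation markers before regeneration. The part of these cells in the H3f3a difference was not tested.

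H3f3b, the other H3.3 gene, showed a smaller and less even difference. Before regeneration the control libraries had 198, 174, 190 and 178 CPM and the HIRA KO libraries 206, 277, 167 and 184 CPM. After regeneration the values were 154, 207, 171 and 188 CPM in control and 279, 281, 232 and 191 CPM in HIRA KO. The groups overlapped at both times. The log2 fold change was 0.17 (95% interval -0.17 to 0.52) before and 0.45 (0.10 to 0.80) after regeneration, with edgeR adjusted p = 0.68 and 0.176. In libraries 1 and 2 after regeneration it was 0.64 (SE 0.17; adjusted p = 0.0157), and in libraries 3 and 4 it was 0.24 (SE 0.17; adjusted p = 0.703).

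**Figure D2:**
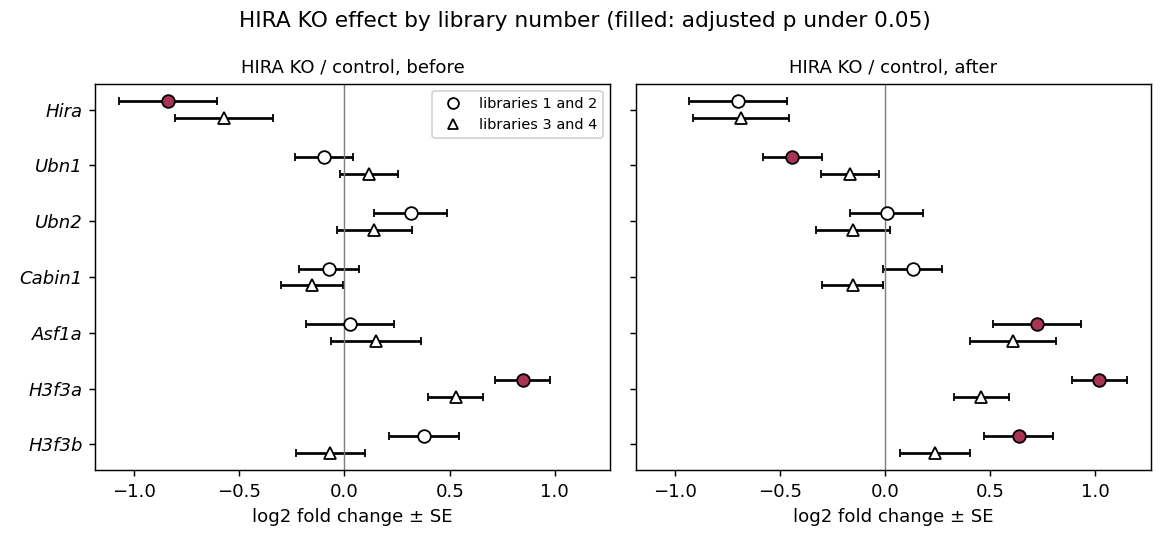
Log2 fold change of HIRA KO against control (horizontal axis, with SE) for each gene, before (left) and after regeneration (right), from the libraries numbered 1 and 2 (circles) and 3 and 4 (triangles). Filled symbols passed an adjusted p of 0.05. Hira was lower and H3f3a higher in all 4 estimates, from -0.84 to -0.57 and from 0.46 to 1.02, while H3f3b before regeneration was 0.38 and -0.067.

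Before regeneration the H3.3 genes together gave 78.7 ± 4.49 CPM per kb (SD, n = 4) in control and 97.0 ± 19.4 in HIRA KO. After regeneration they gave 77.3 ± 7.18 and 111 ± 20.2. The HIRA KO total was 123% and 144% of control. Before regeneration HIRA KO libraries 1 and 2 had 98.7 and 123 CPM per kb, while libraries 3 and 4 had 78.5 and 87.3, beside 73.7 to 84.4 in control. The groups thus overlapped before regeneration (exact two-sided permutation p = 0.0857) and did not overlap after it (p = 0.0286, adjusted over the 4 comparisons p = 0.114). The total was 105% of control before and 122% after regeneration without HIRA KO libraries 1 and 2. In the deposited FPKM the total was 146% of control before and 157% after regeneration, with no overlap at either time (exact permutation p = 0.0286 in each, adjusted p = 0.0571), and without HIRA KO libraries 1 and 2 it was 119% and 133%. The tables differed on whether the totals overlapped before regeneration. The total did not measurably change with regeneration in either genotype (exact permutation p = 0.771 in control and 0.257 in HIRA KO).

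The share of H3f3a in this total before regeneration was 21.1% ± 1.23 in control and 28.0% ± 2.33 in HIRA KO livers, with no overlap (exact permutation p = 0.0286, adjusted p = 0.114). After regeneration it was 22.1% ± 2.69 and 25.7% ± 2.14, and the groups overlapped (exact permutation p = 0.143). In the deposited FPKM the same share was 50.3% ± 2.64 and 59.1% ± 2.92 before, and 52.5% ± 4.85 and 56.6% ± 2.44 after regeneration. The 2 tables disagreed on how much of the H3.3 mRNA came from H3f3a, and in both the HIRA KO libraries before regeneration lay above the control libraries. The HIRA KO share before regeneration was 28.8% by counts and 60.3% by FPKM without HIRA KO libraries 1 and 2.

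**Figure D3:**
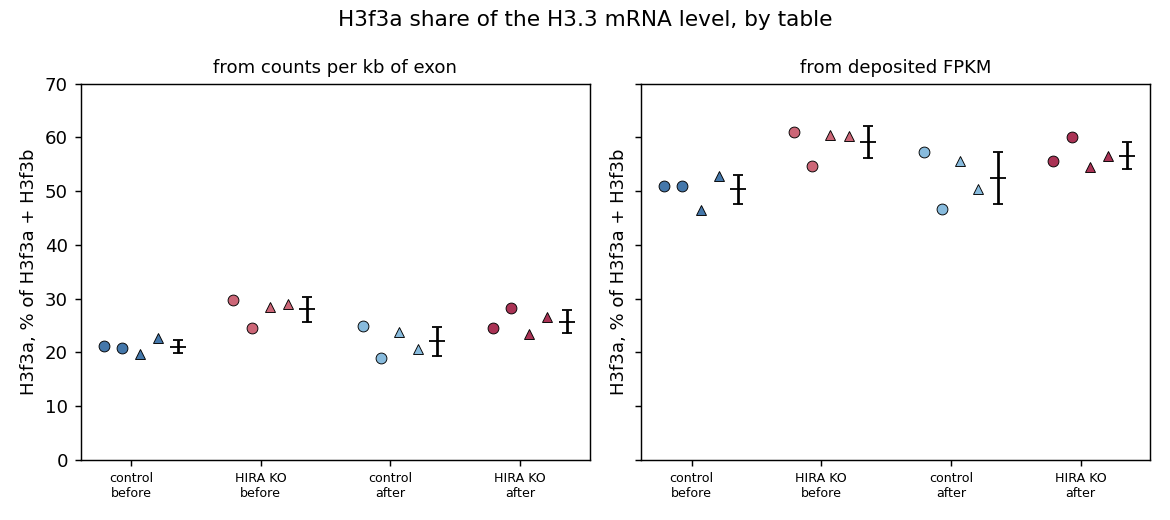
H3f3a as a percentage of H3f3a plus H3f3b (vertical axis, from 0) in each library, from counts per kb of exon (left) and from the deposited FPKM (right). Symbols are as in the plot of CPM by group, with mean ± SD (n = 4). The control mean was 21.1% and 22.1% by counts and 50.3% and 52.5% by FPKM, and in both tables the HIRA KO libraries before regeneration lay above control.

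The genome holds near copies of H3f3a, and the tables treated them differently. H3f3c had 3 to 12 counts per library and H3f3a-ps2 1 to 7, yet their FPKM ran from 13.2 to 30.4 and from 7.46 to 17.5. H3f3a-ps1 had 6 to 30 counts and an FPKM of 0.699 to 3.07. In FPKM before regeneration, H3f3c was 13.9 ± 0.465 in control and 25.2 ± 4.56 in HIRA KO (n = 4), a ratio of 1.82, and H3f3a-ps2 was 8.04 ± 0.428 and 14.8 ± 1.62, a ratio of 1.84. For both, the groups did not overlap, and H3f3a itself had a ratio of 1.71 on that scale. How reads that match several copies were shared out is not given in the sources used here, so the level of H3f3a and of its copies is uncertain by that amount. The antisense gene H3f3aos had 1 to 6 counts and shares 4.57% of the H3f3a exon bases.

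Ubn1 was lower after regeneration than before it in HIRA KO livers. Before regeneration it had 36.8, 39.8, 31.5 and 36.3 CPM in control and 33.7, 37.9, 36.4 and 37.1 CPM in HIRA KO. After regeneration it had 30.3, 32.5, 34.0 and 26.4 CPM in control and 22.7, 23.5, 24.5 and 29.3 CPM in HIRA KO. All HIRA KO livers after regeneration were below all HIRA KO livers before it, while the control groups overlapped.

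In HIRA KO, Ubn1 fell by 0.54 on the log2 scale (SE 0.11; edgeR adjusted p = 0.00388), to 69.0% of the level before regeneration. In control it was 85.3% of the level before (log2 fold change -0.23, SE 0.11; adjusted p = 0.2). The difference between these changes did not pass (-0.31, SE 0.15; adjusted p = 0.739), so a fall particular to HIRA KO was not shown. The fall in HIRA KO was called in 8 of 8 fits that left out a library, and both in libraries 1 and 2 (-0.63, adjusted p = 0.00892) and in libraries 3 and 4 (-0.45, adjusted p = 0.0384). Without HIRA KO libraries 1 and 2 it was -0.44 (adjusted p = 0.0633). Against control after regeneration, HIRA KO had 81.2% of the Ubn1 mean (log2 fold change -0.30, SE 0.11; adjusted p = 0.178).

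Some cell type markers also differed between the times, where 10.2% of all genes were called in control and 12.0% in HIRA KO. All 8 Kupffer cell markers were called higher after regeneration in both genotypes. Their sum went from 214 to 251 CPM before to 693 to 1084 CPM after regeneration in HIRA KO, and from 154 to 421 CPM to 738 to 929 CPM in control. Of the 10 hepatocyte markers, 3 were called lower in HIRA KO and 2 in control, and none was called higher. None of the 9 stellate or 7 T and NK cell markers was called in either genotype. Of the 8 cholangiocyte and 6 B cell markers, 1 of each list was called higher in control and 0 in HIRA KO. Of the 7 endothelial markers, 1 was called higher and 1 lower in each genotype. The part of the cell makeup in the changes of Ubn1 and Asf1a between the times was not tested.

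Ubn2, the paralog of Ubn1, had 18.8 ± 1.90 CPM in control before regeneration and 22.01 ± 1.92 in HIRA KO (SD, n = 4). After regeneration the means were 19.97 ± 2.48 and 19.1 ± 3.78 CPM. Its log2 fold changes lay between -0.20 and 0.23 in the 4 comparisons and none passed. Per length of exon, Ubn1 made up 83.2% ± 2.18 of Ubn1 plus Ubn2 in control before regeneration and 81.0% ± 1.49 in HIRA KO. After regeneration the shares were 80.0% ± 1.12 and 77.2% ± 4.40. None of the 4 comparisons of this share passed the exact permutation test (smallest p = 0.0857). The HIRA KO shares were 82.0% before and 80.2% after regeneration in libraries 3 and 4 alone.

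Cabin1 was the flattest of the subunit genes between groups, with means of 21.1 ± 2.40 and 19.6 ± 2.69 CPM before and 20.6 ± 3.22 and 20.8 ± 5.77 CPM after regeneration, in control and HIRA KO. The HIRA KO libraries after regeneration spread from 14.8 to 27.5 CPM. The interval of the HIRA KO effect was -0.48 to 0.26 before and -0.35 to 0.39 after regeneration on the log2 scale.

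Asf1a, which supplies HIRA with H3.3-H4, rose with regeneration in HIRA KO livers, and a rise particular to HIRA KO was not shown. It had 4.92, 6.02, 4.87 and 4.62 CPM in control and 4.92, 6.27, 5.71 and 4.82 CPM in HIRA KO before regeneration. After regeneration it had 4.13, 4.76, 5.07 and 6.05 CPM in control and 6.57, 8.13, 8.96 and 8.01 CPM in HIRA KO. The HIRA KO libraries after regeneration stood above all 12 other libraries. The rise with regeneration in HIRA KO was 0.54 on the log2 scale (SE 0.16; edgeR adjusted p = 0.0321), to 146% of the level before.

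In control Asf1a did not measurably change (log2 fold change -0.028, 95% interval -0.38 to 0.32). HIRA KO had 158% of the control mean after regeneration (0.66, SE 0.16; edgeR adjusted p = 0.0649; DESeq2 adjusted p = 0.00332) and 106% before it. The HIRA KO effect after regeneration exceeded that before it by 0.57 (SE 0.22; edgeR unadjusted p = 0.0202), which did not pass over all genes (adjusted p = 0.62). The call with regeneration was made in 3 of the 8 fits that left out a library. It was lost without library 1, 3 or 4 before regeneration and without library 2 or 3 after it, with log2 fold changes from 0.49 to 0.64 and adjusted p up to 0.0961 over the 8. In libraries 3 and 4 the rise was 0.69 (adjusted p = 0.0334) and in libraries 1 and 2 it was 0.40 (adjusted p = 0.26). Without HIRA KO libraries 1 and 2 it was 0.71 (adjusted p = 0.0557).

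Asf1a overlaps the replication gene Mcm9 on the opposite strand over 48.0% of its exon bases. Mcm9 had 65 to 115 counts per library, similar to Asf1a, and its mean went from 4.71 ± 0.435 to 3.95 ± 0.398 CPM in HIRA KO with regeneration (log2 fold change -0.26, adjusted p = 0.271), in the other direction. The kit keeps strand, and whether the counting used it is not stated, so the split of reads between Asf1a and Mcm9 is uncertain.

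**Figure D4:**
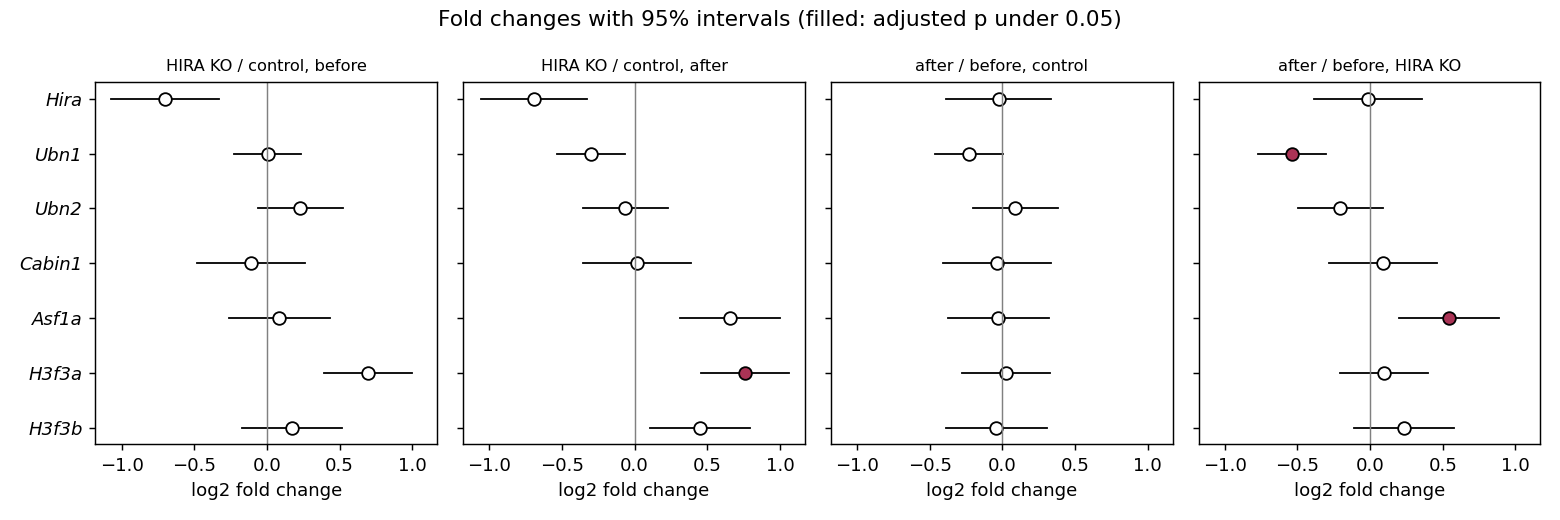
Log2 fold change of the 7 genes (horizontal axis, with 95% intervals) in 4 comparisons. Filled points passed an adjusted p of 0.05 in edgeR. H3f3a was called in HIRA KO against control after regeneration (0.76), and Ubn1 (-0.54) and Asf1a (0.54) between the times in HIRA KO. None was called between the times in control.

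Read against all genes, the members were called in 0 of 7 cases before regeneration, where 0.0391% of the 23018 genes were called, and in 1 of 7 (H3f3a) after it, where 0.491% were. In control 0 of 7 changed with regeneration against 10.2% of all genes, and in HIRA KO 2 of 7 (Ubn1 and Asf1a) against 12.0%. For the difference of the HIRA KO effects, 0 of 7 members and 0.0% of all genes were called in edgeR. At an unadjusted p under 0.05 it was 1 of 7 (Asf1a) and 6.81%, and DESeq2 called 0 of 7 and 0.291%. In CPM, the groups did not overlap for 2 of 7 members before (Hira and H3f3a, 8.07% of all genes) and 3 of 7 after regeneration (Hira, H3f3a and Asf1a, 8.1%). Between the times this held for 0 of 7 in control (19.0% of all genes) and 2 of 7 in HIRA KO (16.1%). DESeq2 called 2 of 7 and 3 of 7 members in HIRA KO against control, where it called 1.66% and 3.95% of all genes, and 0 of 7 and 2 of 7 between the times in control and in HIRA KO, where it called 14.2% and 15.8%. In libraries 1 and 2, edgeR called 2 of 7 members in HIRA KO against control before regeneration, 4 of 7 after it and 1 of 7 between the times in HIRA KO, beside 8.55%, 12.4% and 8.75% of all genes. In libraries 3 and 4 the counts were 0, 0 and 2 of 7, beside 0.0478%, 0.2% and 12.9%. Without HIRA KO libraries 1 and 2 they were 0 of 7 in each, beside 0.0233%, 0.0698% and 10.3%. The median log2 fold change of the members was 0.087 before and 0.016 after regeneration, beside 0.0094 and 0.022 over all genes.

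Genes of replication-coupled H3 supply, the route that hands canonical H3 to CAF-1, changed with regeneration in both genotypes. Of 11 genes of this route, 6 rose and 1 fell in control, beside 10.2% of all genes called. In HIRA KO 6 rose and none fell, beside 12.0%. The median log2 fold change of the 11 genes was 0.69 in control and 0.98 in HIRA KO, beside 0.0029 and 0.019 over all genes. In libraries 1 and 2, 2 rose and 1 fell in control (5.81% of all genes called) and 5 rose in HIRA KO (8.75%). In libraries 3 and 4, 6 rose in each (13.7% in control and 12.9% in HIRA KO). In HIRA KO, 5 rose without HIRA KO libraries 1 and 2, beside 10.3%. In HIRA KO against control, 0 of 11 were called at either time, beside 0.0391% of all genes before and 0.491% after regeneration. Asf1b, the paralog of Asf1a used in dividing cells, rose by 2.81 (SE 0.46; edgeR adjusted p = 0.00122) in control and by 1.94 (SE 0.44; adjusted p = 0.00905) in HIRA KO. The latter was 2.03 (adjusted p = 0.0832) without HIRA KO libraries 1 and 2. It had 7, 8, 13 and 11 reads in control before regeneration and 15, 60, 111 and 101 after it, so the control libraries after regeneration varied widely.

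Chaf1a and Chaf1b, which encode a part of the CAF-1 complex, rose by 1.89 and 1.60 in control and by 1.56 and 2.00 in HIRA KO. Mcm2, a helicase subunit that also binds H3-H4, rose by 1.84 and 1.85. Rbbp4, a histone-binding subunit shared by many complexes, fell by 0.44 in control (adjusted p = 0.0247). The 12 proliferation markers all passed in the same direction in both genotypes, beside 10.2% of all genes called in control and 12.0% in HIRA KO. Their sum ran from 7.10 to 31.8 CPM before and from 57.6 to 472 CPM after regeneration. In libraries 1 and 2, 6 of the 12 were called higher in control (5.81% of all genes) and 0 in HIRA KO (8.75%). In libraries 3 and 4 all 12 were called in each (13.7% and 12.9%). Without HIRA KO libraries 1 and 2, 9 were called in HIRA KO (10.3%). The part of proliferating cells in the changes of the H3 supply genes was not tested.

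Per length of exon, Asf1a made up 85.7% ± 5.02 of Asf1a plus Asf1b in control before regeneration and 50.1% ± 16.7 after it (n = 4). In HIRA KO the share was 80.1% ± 5.00 before and 60.8% ± 5.18 after regeneration. The groups did not overlap between the times in either genotype (exact permutation p = 0.0286 in each, adjusted p = 0.0571). Without libraries 1 and 2 the HIRA KO shares were 77.4% and 57.6%. The genotypes overlapped after regeneration (exact permutation p = 0.286). In the deposited FPKM the share was 93.3% ± 3.23 before and 74.5% ± 11.4 after regeneration in control. In HIRA KO it was 91.2% ± 2.59 and 82.2% ± 3.03. The size of the fall thus depended on the table, and in both tables the times did not overlap in either genotype.

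**Figure D5:**
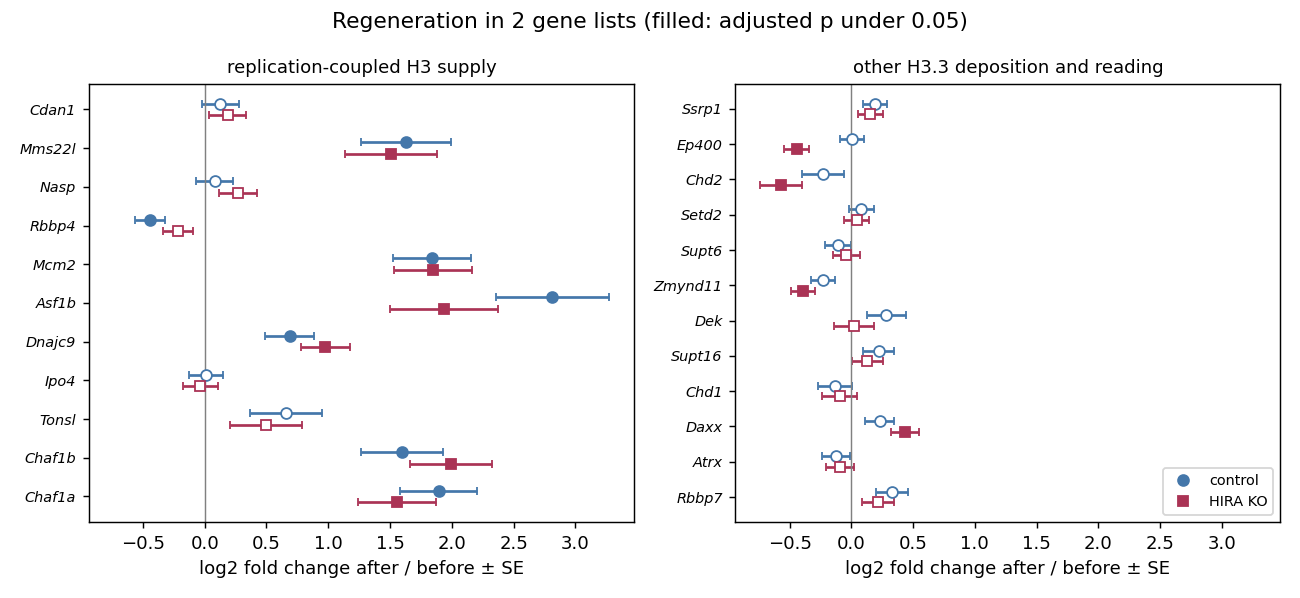
Log2 fold change after against before regeneration (horizontal axis, with SE) for the genes of replication-coupled H3 supply (left) and of the other H3.3 deposition and reading list (right), in control (circles) and HIRA KO (squares). Filled symbols passed an adjusted p of 0.05. Asf1b, Chaf1a, Chaf1b, Mcm2, Mms22l and Dnajc9 were called higher in both genotypes, and the genes on the right lay between -0.57 and 0.44.

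In a list of 12 other genes linked to H3.3 deposition and reading, not all of them particular to H3.3, 0 were called in HIRA KO against control before regeneration. There 0.0391% of all genes were called. After regeneration, where 0.491% of all genes were called, 1 of the 12 was called. That gene was Ep400, the ATPase of a remodelling complex that exchanges H3.3, at 31.3 ± 2.84 CPM in HIRA KO and 43.2 ± 3.83 in control after regeneration, where it was lower by a log2 fold change of -0.47 (SE 0.10; edgeR adjusted p = 0.0443). The value was -0.44 (adjusted p = 0.0413) in libraries 1 and 2, -0.49 (adjusted p = 0.233) in libraries 3 and 4 and -0.47 (adjusted p = 0.164) without HIRA KO libraries 1 and 2. With regeneration 0 of 12 were called in control, beside 10.2% of all genes. In HIRA KO 1 was called higher and 3 lower, beside 12.0% of all genes. In HIRA KO, Daxx, the chaperone that deposits H3.3 at heterochromatin, rose by 0.44 (adjusted p = 0.0206), and Chd2, Ep400 and Zmynd11 fell by 0.57, 0.44 and 0.39. In control the log2 fold changes of Daxx, Chd2, Ep400 and Zmynd11 were 0.23, -0.23, 0.0063 and -0.23. The differences between the genotypes in these changes did not pass (edgeR adjusted p = 0.841, 0.813, 0.457 and 0.85). Changes particular to HIRA KO were thus not shown. The Daxx value in HIRA KO was 0.22 (adjusted p = 0.364) in libraries 1 and 2 and 0.63 (adjusted p = 0.00539) in libraries 3 and 4. Without HIRA KO libraries 1 and 2, Daxx (0.64, adjusted p = 0.011), Ep400 (-0.42, adjusted p = 0.0448) and Zmynd11 (-0.44, adjusted p = 0.024) passed and Chd2 (-0.54, adjusted p = 0.076) did not. Atrx, the partner of Daxx, had log2 fold changes of -0.13 and -0.090.

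Of the 12 canonical H3 genes, 9 had enough counts to be tested. Most of these mRNAs lack a polyA tail. Hist2h3b and Hist2h3c1 had 0 counts in all 16 libraries, yet the group means of their FPKM reached 1.19 and 0.942, so the tables also treated copies of these genes differently. Hist1h3d rose with regeneration in control (1.92, SE 0.56; adjusted p = 0.0336), from 2 to 4 reads per library to 6 to 16. No other canonical H3 gene was called in any comparison. Hist1h3d did not pass in the libraries split by number (2.02, adjusted p = 0.149 in libraries 1 and 2, and 1.83, adjusted p = 0.196 in libraries 3 and 4).

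By a fixed rule, the 3 genes most like each member were taken from 13176 genes with a mean of at least 1 CPM, by Pearson's r of log2(CPM + 1) over the 16 libraries. These libraries include those before and after regeneration from the same mice. For Hira these were Dna2 (r = 0.925), Polr3gl (0.894) and 9330162012Rik (0.884), and for Ubn1 Dstyk (0.969), Hbp1 (0.954) and Xpnpep3 (0.946). For H3f3a they were 5330417C22Rik (0.955), Chpf (0.955) and Asrgl1 (0.949), and for H3f3b Rcan1 (0.887), St8sia3 (0.883) and Lancl1 (0.879). Ubn2 had Gm31333 (0.802), Fhod1 (0.802) and Pdpk1 (0.792), Cabin1 had Ppip5k1 (0.915), Mks1 (0.902) and Pnn (0.878), and Asf1a had Eif4a3 (0.798), Acot6 (0.795) and Tomm22 (0.794). No member was among the 3 genes most like another member. Within the set, H3f3a and H3f3b had r = 0.751, and Hira and H3f3a had r = -0.878.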

How the data were processed

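The authors trimmed reads, aligned them to mm10 with STAR and, per the study's methods, counted them with HOMER. The processing notes also list HTSeq and Cufflinks, without a role. The annotation release and the strand setting of the counting are not given in the sources used here. The deposited count table holds whole-number read counts per gene and the deposited FPKM table holds fragments relative to transcript length and depth in these 16 libraries. Empty FPKM cells (48.6% to 54.7% of a library) were read as 0. Gene IDs were matched to GENCODE M21 (54673 of 55421), and 0 columns of values were left unused. The 7 promoter windows come from RefSeq.

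Genes with at least 10 counts in total were tested with edgeR (4.0.16, R 4.3.3), with TMM scaling, 4 group means over all 16 libraries, a robust quasi-likelihood test and Benjamini-Hochberg adjustment over all 23018 genes. Calls were made at an adjusted p of 0.05. SEs were derived from each log2 fold change and its F statistic, and 95% intervals use 12 degrees of freedom. Both are approximate. DESeq2 (1.42.0), which the study used, and limma (3.58.1) on log2(FPKM + 0.1) were alternatives, and the fits were tested on simulated data. Shares and the H3.3 total were compared with exact two-sided permutation tests of means (scipy 1.17.1), adjusted over 4 comparisons each. Level per length is CPM per kb of merged GENCODE exons. Libraries of 1 group differed by at least 13.7 times the chi-square sampling noise, so none was counted as a duplicate. Nothing in the columns ties a library to a mouse, so p-values measure the spread between these libraries.

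The members and gene lists were chosen with earlier results of these data known. All 7 members are named. Of the other list genes, up to 4 called per comparison were named by smallest p, and further genes because they overlap or copy a member or are most like it. Rbbp4, Hist1h3d, Mms22l, Daxx, Chd2, Ep400 and Zmynd11 with regeneration, and Atrx, were named after their values were seen. The guide sequence and protein sequences are not shown.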

Additional observations from a re-analysis of the deposited data

Results flagged for a closer look

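In 44 sets of 4 libraries (7 genes and 4 derived quantities in 4 groups), 1 library stood apart from the other 3 by Dixon's test, where chance marks about 1 set in 20. This was Hira in HIRA KO after regeneration, where library 4 had 4.56 CPM and the others 3.04 to 3.29 CPM. Without it the log2 fold change of Hira after regeneration was -0.83 and passed.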

How the results depend on the processing

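No paired analysis was possible because the columns name neither the mouse nor the replicate number of the labels, and the planned fits with a replicate block or with the deletion approach were not run for the same reason. The cause of a change between settings was not tested, beyond the fewer libraries or genes that a setting itself uses. Setting aside the libraries 1 and 2 of HIRA KO was chosen after seeing the data.

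The number of the 7 genes called in HIRA KO against control before regeneration (0) was 2 with DESeq2, 2 in libraries numbered 1 and 2, and 1 with all genes that had a count. After regeneration (1) it was 3 with DESeq2, 3 with a mean CPM of at least 1, 4 in libraries numbered 1 and 2, and 0 in libraries 3 and 4, in the fit of the compared groups alone and without HIRA KO libraries 1 and 2. Leaving out each library gave 0 to 2. Between the times in HIRA KO (2) it was 1 with all genes that had a count, in the compared groups alone and in libraries 1 and 2, and 0 without HIRA KO libraries 1 and 2, with 1 to 2 when each library was left out. The shares of all genes called are given above for DESeq2, the libraries split by number and the fit without HIRA KO libraries 1 and 2. In the other settings they are not given, so those counts of members cannot be set against all genes. Hira passed before regeneration with DESeq2 (-0.69) and in libraries 1 and 2 (-0.84), and after it with DESeq2 (-0.68), with a mean CPM of at least 1 (-0.65) and with limma on FPKM (-0.80). With each library left out it ran from -0.82 to -0.65 before and from -0.83 to -0.59 after regeneration. The exact tests of the H3.3 total and of the shares say nothing about stability, since a p at the minimum of 0.0286 in 1 of 4 comparisons becomes 0.114 after adjustment. Before adjustment the H3.3 total before regeneration went from an exact permutation p of 0.0857 by counts to 0.0286 by FPKM.

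Directions turned only where the log2 fold change was not called under either setting. In HIRA KO against control, Ubn1 before regeneration was -0.098 in libraries 1 and 2 and -0.049 with limma, H3f3b before it was -0.067 in libraries 3 and 4 and -0.072 without HIRA KO libraries 1 and 2, Ubn2 after it was 0.0082 in libraries 1 and 2, and Cabin1 after it was -0.15 in libraries 3 and 4, -0.33 without HIRA KO libraries 1 and 2 and -0.073 with limma. Between the times in control, Hira was 0.096 in libraries 3 and 4 and 0.091 with limma, Cabin1 0.049 in libraries 1 and 2 and 0.0088 with limma, and Asf1a 0.23 in libraries 3 and 4 and 0.12 with limma. Between the times in HIRA KO, Hira was 0.0013 with all genes that had a count, 0.020 with a mean CPM of at least 1 and 0.0020 in the compared groups alone, Cabin1 -0.14 in libraries 3 and 4 and -0.12 without HIRA KO libraries 1 and 2, and H3f3a -0.021 and -0.0053 in these 2 settings. Leaving out each library turned Ubn1 (-0.052 to 0.053) before, Ubn2 (-0.16 to 0.061) and Cabin1 (-0.11 to 0.16) after regeneration, in control Hira (-0.11 to 0.037), Cabin1 (-0.12 to 0.036), Asf1a (-0.16 to 0.065), H3f3a (-0.0079 to 0.068) and H3f3b (-0.11 to 0.039), and in HIRA KO Hira (-0.14 to 0.10), Cabin1 (-0.056 to 0.24) and H3f3a (-0.034 to 0.20).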
